A study of Mus musculus with 2 samples.

Results

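Rfx6 binding sites that lay in introns at a middle distance from gene starts were studied in Min6b1 cells. These were the peaks of the HA-Rfx6 ChIP-seq whose summit fell inside a protein-coding gene of GENCODE M1, in no coding or untranslated segment, and more than 10 kb but at most 50 kb from the nearest start of a protein-coding transcript. Of the 23308 peaks in the list, 3939 (16.9%) met this rule and are called mid-intronic peaks here. The rule used position only, and the reads, the fold enrichments and the sequences under the peaks did not enter it. It leaves out exons and sequence near starts, where base composition differs, so the sequences are not independent of it.

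Min6b1 is an insulin-secreting mouse β cell line. For the 3HA-Rfx6 library, cells cultured in 25 mM glucose received 24 μg of the plasmid pCMV-Tag2A-3HA-Rfx6 by lipofection, were collected 2 days later and were precipitated with an antibody against the HA tag. The control library was precipitated with the same antibody and carries the label Min6b1 cells, although its culture text repeats the transfection. The bound protein was thus a tagged Rfx6 expressed from a plasmid, in addition to the Rfx6 of the cell line itself. There was 1 library per condition, so no value has a replicate error and no difference between conditions was tested. Depth differed between them. Of 49443917 reads with 3HA-Rfx6, 33949757 were kept after removal of duplicates, and of 16911298 in the control, 3567375 were kept. The mid-intronic peaks held 371578 reads, which was 1.09% of the kept reads and 16.4% of the reads in all peaks. Intervals given with shares are 95% Wilson intervals and cover counting error only.

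Rfx6 is a winged-helix transcription factor of the RFX family that is required for the formation of islet cells and for the function of mature β cells. RFX factors bind as dimers to the X-box, an inverted repeat of a short half-site whose arms read close to GTTGCC and GGCAAC. Introns of active genes frequently contain enhancers, which can act on a start that lies many kilobases away, on that of the host gene or on that of a neighbour.

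The sequences below show the X-boxes on which the motif results rest. Each line gives 30 bases of the reference genome (NCBIM37, mm9) on the strand of the host gene, with the X-box in capitals. The first 12 are the X-boxes closest to the summit in the peaks with the highest fold enrichment among those with a strict X-box.

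Rfx2, intron 1, chr17:56953919-56953948, minus strand: tggactgcGTCGCCCCTGGCAACcgttgtt
Uqcc, intron 5, chr2:155727820-155727849, minus strand: ctgctcaagGTTGCTAGGCTACagtctgct
Nova2, intron 3, chr7:19535408-19535437, plus strand: gggttccaGTTACTGTGGCAACcgtttcgg
A630001G21Rik, intron 6, chr1:87616924-87616953, minus strand: cttatgttGTTGCCAAGGCAACctctgcaa
Gm20388, intron 1, chr8:124211926-124211955, plus strand: tgtctgctGTTGCCATGGCAACagggctat
Sez6l, intron 2, chr5:112902770-112902799, minus strand: ctctttcctGTTGCCCAGCAACatagtcat
Ttc7, intron 8, chr17:87726515-87726544, plus strand: ccaactccGTTACCATGGTTACatacacag
Rfx4, intron 1, chr10:84229695-84229724, plus strand: tgccagaaGTTGCCCTGGTGACggagctgc
Cacna1h, intron 1, chr17:25555999-25556028, minus strand: ctctttggGTTGCCTTGGCAACgcctgtca
Abat, intron 1, chr16:8539482-8539511, plus strand: cccctgtcGTTGCCATGGCAACtgatgagc
Anxa6, intron 1, chr11:54836669-54836698, minus strand: ggcccctgGTTGCCGGGGCAACagcagggt
Rap1gap2, intron 3, chr11:74281980-74282009, minus strand: tcagatagcGTTGCCAGGCTACcggaggct

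The next 4 are the other strict X-boxes in genes of the lists described further on, shown because these genes belong to the RFX family, the secretory machinery, the islet transcription factors or the genes that β cells normally keep silent.

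Rfx2, intron 1, second site, chr17:56949888-56949917, minus strand: tgcccacttGTTGCTAGGCAACccaagatt
Prkca, intron 8, chr11:107851460-107851489, minus strand: ttttaacctGTTGCCTAGCAACtgagtaga
Myt1l, intron 18, chr12:30557420-30557449, plus strand: gcaaccagGTTGCCATAGCAACtcactccc
Smad3, intron 1, chr9:63572405-63572434, minus strand: gtgggagaaGTTGCTGGGTAACatctgatg

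The last 5 come from strong peaks without a strict X-box. They are read in the direction of the half-site nearest the summit, GTTGCC or GTTGCT, which is in capitals, and they show how far the second arm departed from the repeat. These were chosen after the values had been seen.

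Celsr1, chr15:85831328-85831357, minus strand: tctcagGTTGCTatggtagcgagcatggca
Clmn, chr12:106071414-106071443, minus strand: ccaggtGTTGCTaggctagctcagctccag
Snap25, chr2:136579741-136579770, plus strand: gagagaGTTGCTgcttggaaaccagcacct
Abcc8, intron 10, chr7:53401251-53401280, plus strand: tttcacGTTGCCcgggctccatggctggcg
Abcc8, intron 28, chr7:53368947-53368976, minus strand: ccccttGTTGCCatggaaaccagtaacctc

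The half-site of the X-box was the leading sequence feature of the mid-intronic peaks. In the 200 bp around the summit, 2093 of the 3939 peaks (53.1%, interval 51.6 to 54.7) held GTTGCC or GTTGCT on either strand, against 595 (15.1%, 14.0 to 16.3) of windows of the same length 1 kb to the right. Of all 23308 peaks, 50.6% held it at the summit and 15.7% in the window to the right. The summit share was 40.9% in peaks within 1 kb of a start. It was 53.1% in intronic peaks more than 50 kb away and 54.6% in intergenic peaks at 10 to 50 kb. At least 2 half-sites were found in 618 mid-intronic peaks (15.7%) and in 46 of their reference windows (1.17%). This pair of letters was assembled after the 6-mers described next had been seen, and it contains the half-site GTTGCC, which was found in 1044 peaks (26.5%) and 238 reference windows (6.04%). The half-site GTTACC, in which the fourth base differs, was found in 523 peaks (13.3%) and in 188 reference windows (4.77%). Over all peaks, GTTGCC was found in 26.8% and GTTACC in 12.6%.

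All 6-base words were counted without reference to any motif. The 4 words with the widest difference between summit and reference windows were parts of the half-site. AGCAAC, the reverse complement of GTTGCT, was present in 33.9% of the summit windows and 9.62% of the reference windows. GGCAAC, the right arm of the X-box, was present in 26.5% and 6.04%. GCAACA and GCAACC, which add the base next to the arm, were present in 25.7% and 24.0% of the summit windows and in 7.84% and 6.17% of the reference windows. The next words were rich in C and G: CCTGGC was present in 35.1% against 20.1% and CCCAGC in 37.4% against 23.4%. The median GC content was 52.5% in the summit windows and 48.5% in the reference windows, and how far this difference contributed to such words was not tested. At the other end, TTAAAA was present in 7.49% of the summit windows and 19.0% of the reference windows.

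The bases that followed the half-site showed the second arm of the repeat. Over 2829 half-sites in summit windows with enough sequence behind them, the base directly after the half-site was A in 42.0%, against 21.2% of 614 half-sites in reference windows. The third base after it was G in 68.1%, against 31.3%. The end of the second arm was less marked: AAC ran from the fifth base after the half-site in 8.31% of the cases, against 2.44%, and from the sixth base in 6.82%, against 1.63%. The windows from Celsr1, an atypical cadherin of planar cell polarity, and from Clmn, a membrane protein with actin-binding domains, had G as the third base after the half-site but no complete second arm.

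A complete X-box was rarer. It was searched on both strands in a strict form. Its left arm was GTNGCC or, in place of that, GTNACC. Its right arm was AGCAAC or, in place of that, AGTAAC, or either of these with G as the first base, and 0 to 3 bases lay between the arms. It was found within the 200 bp around the summit of 245 mid-intronic peaks (6.22%, interval 5.51 to 7.02) and in 8 of the reference windows (0.203%, 0.103 to 0.400). Among all peaks the share was 6.42%. It was 5.78% for intronic peaks 1 to 10 kb from a start, 7.02% for those more than 50 kb away, 7.63% for intergenic peaks at 10 to 50 kb and 5.75% for peaks within 1 kb of a start. The intervals of these 4 classes overlapped that of the mid-intronic peaks, though only narrowly for the intergenic class (6.79 to 8.56). Overlap of intervals is not a test, and no difference between classes was tested. Those of a further pair of classes did not: the share was 2.95% (2.11 to 4.11) for peaks in coding or untranslated exons and 8.25% (7.33 to 9.27) for intergenic peaks more than 50 kb from a start. Intergenic peaks at 1 to 10 kb stood at 5.75% (4.75 to 6.94). A relaxed form of the X-box, with 1 to 3 bases between degenerate arms, was found in 46.7% of the mid-intronic peaks, in 22.3% of their reference windows and in 45.9% of all peaks.

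The X-boxes were concentrated near the summits. The centre of the X-box closest to the summit lay within 20 bp of it in 133 of the 245 peaks (54.3%). Counted over all mid-intronic peaks, there were 216 strict X-boxes within 50 bp of the summits, or 0.548 per kb, and 64 at 500 to 1000 bp, or 0.0162 per kb. The plot of X-boxes by distance shows the same concentration on both sides of the summit.

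**Figure D1:**
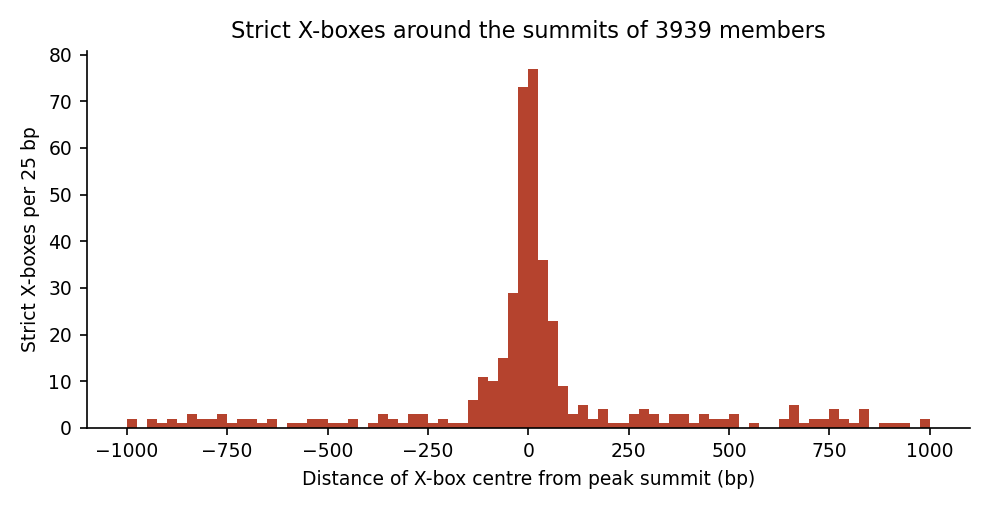
Number of strict X-boxes per 25 bp (vertical axis) by the distance of their centre from the summit in bp (horizontal axis), summed over the 3939 mid-intronic peaks. The count was highest in the bins beside the summit, and 216 X-boxes lay within 50 bp of a summit against 64 at 500 to 1000 bp.

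The arms were mostly separated by 1 base (126 of the 245, 51.4%) or by 2 bases (101, 41.2%). A gap of 3 bases was found in 15 and none in 3. Of the 245, 33 had the arms GTTGCC and GGCAAC without a mismatch, as in A630001G21Rik, Cacna1h, Abat and Anxa6. In 134, 1 of the arms was of that form, as in Rfx4 and Sez6l, and in 78 neither was, as in Ttc7. The median fold enrichment was 11.5 with both arms intact, 10.9 with 1 and 9.32 with neither. Over all 245 it was 10.33, with a median of 82 reads, against 8.31 and 69 reads in the 3694 peaks without a strict X-box.

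The half-site and the X-box were both more frequent in the peaks with higher fold enrichment. When the mid-intronic peaks were divided by fold enrichment into 4 groups of equal size, the half-site was present in 43.5% (40.4 to 46.6) of the lowest group, in 53.1% and 53.5% of the middle groups and in 62.4% (59.4 to 65.4) of the highest. The strict X-box was present in 3.05% (2.14 to 4.31) of the lowest group, in 6.50% and 5.39% of the next and in 9.95% (8.23 to 12.0) of the highest. Even so, 3 of the 5 strongest mid-intronic peaks by fold enrichment, in Dnaic1, Ece1 and Celsr1, held no strict X-box, and no half-site was found in the windows of Dnaic1 and Ece1.

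Motifs of other factors were searched in the same windows. The MARE half-site TGCTGA, bound by large Maf factors, was present in 20.7% of the summit windows and 15.6% of the reference windows, and in 19.4% of all summit windows. The E-box CAGCTG was present in 19.4% against 11.8% (17.9% of all summit windows), and the E-box CAGATG, a form bound by NeuroD1 with its partners, in 19.8% against 17.1% (16.1% of all). The AP-1 site TGACTCA was present in 5.23% (4.58 to 5.97) against 3.25% (2.74 to 3.85), and in 4.12% of all summit windows. All summit windows include those within 1 kb of a start, where AP-1 stood at 1.69%, CAGATG at 8.20% and TGCTGA at 13.4%. In intronic peaks more than 50 kb from a start, these sites stood at 4.75%, 20.6% and 23.2%. In intergenic peaks at 10 to 50 kb they stood at 4.78%, 18.5% and 20.96%. A higher share than in all peaks was thus not particular to mid-intronic peaks. The homeodomain core TAATTA was rarer at the summits than in the reference windows, with 2.61% against 4.70% (2.02% of all summit windows). The same held for the GATA site AGATAA, with 7.69% against 9.93% (5.73% of all). Both words are rich in A and T, and the median GC content was 52.5% in summit and 48.5% in reference windows. How far base composition contributed to these lower shares was not tested. The forkhead site TGTTTAC was present in 2.74% and 2.34%, with intervals that overlapped, and in 2.45% of all summit windows. The GC box GGGCGG, which was present in 11.1% of all summit windows and in 34.0% of those within 1 kb of a start, was present in 4.14% of the mid-intronic summit windows and in 4.11% of their reference windows.

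Sites found in very few windows gave no more than counts. The CRE, TGACGTCA, was found in 11 mid-intronic summit windows and 5 reference windows, the HNF4 site CAAAGTCCA in 5 and 12, the HNF1 site in 4 and 6, and the CTCF site in 6 and 10. The E-boxes, the MARE half-site and AP-1 were each present at shares whose intervals overlapped in peaks with and without a strict X-box, for example 4.90% and 5.25% for AP-1.

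**Figure D2:**
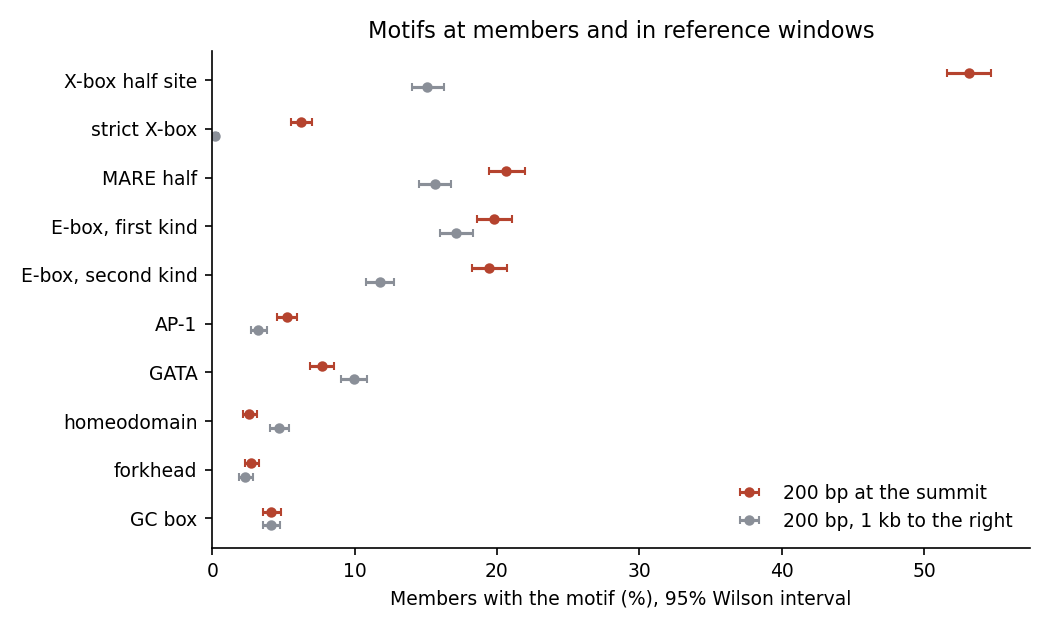
Share of the 3939 mid-intronic peaks with each motif in percent (horizontal axis), in the 200 bp around the summit and in the 200 bp window 1 kb to the right, with 95% Wilson intervals. The X-box half-site (GTTGCC or GTTGCT) stood at 53.1% against 15.1%, and the first and second kind of E-box are CAGATG and CAGCTG.

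The base composition of mid-intronic peaks differed from that at gene starts. A median of 2 CpG dinucleotides was found in the 200 bp at the summit, and 11.6% of the windows had none. In the peaks within 1 kb of a start the median was 14 CpG, 1.43% had none, and the median GC content was 64.5%. The mid-intronic windows were close to those of intergenic peaks at 10 to 50 kb, with a median GC content of 52.5% in both.

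Mid-intronic peaks were denser than the genome as a whole. The sequence that met the rule, inside protein-coding genes and outside exons at this distance, made up 362 Mb (14.2% of the genome without gaps) and held 10.9 peaks per Mb, against 9.12 per Mb over all peaks and the whole genome. Intronic sequence 1 to 10 kb from a start held 14.5 peaks per Mb and intronic sequence beyond 50 kb held 6.20. At the same distance of 10 to 50 kb, intergenic sequence held 9.12 per Mb, and within 1 kb of a start the density was 83.2 per Mb. Among the mid-intronic peaks themselves the density was 11.9 per Mb at 10 to 20 kb, 10.8 at 20 to 30 kb, 10.1 at 30 to 40 kb and 9.05 at 40 to 50 kb. The mappability and copy number of these sequences in Min6b1 cells were not analysed here.

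**Figure D3:**
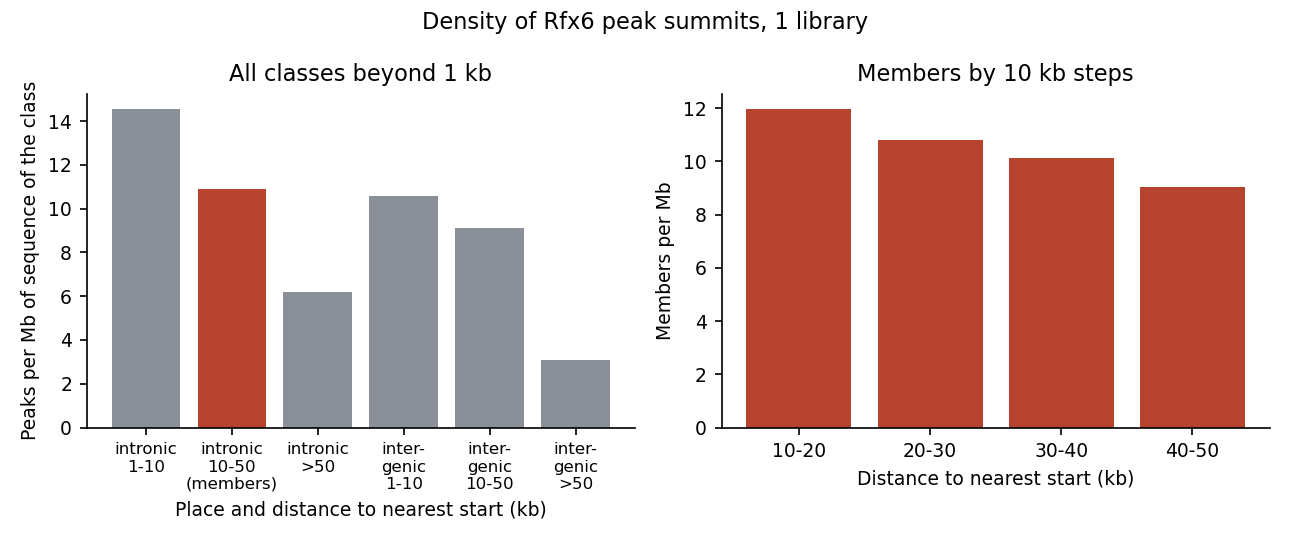
Peak summits per Mb of sequence of each class (left, vertical axis) by place and distance from the nearest protein-coding transcript start in kb, and mid-intronic peaks per Mb in steps of 10 kb (right). Mid-intronic sequence stood at 10.9 per Mb, between intronic sequence closer to (14.5) and farther from (6.20) a start, and its 4 steps went from 11.9 to 9.05.

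The strength of the peaks did not follow this gradient. The median count of reads was 69, 71, 69.5 and 70 in the 4 steps, and the median fold enrichment over the background of the peak caller was 8.24, 8.47, 8.61 and 8.53. The strict X-box was present in 5.36%, 6.58%, 7.00% and 7.38%, and the intervals of the first and last step overlapped. Over all mid-intronic peaks the median was 70 reads (quartiles 50 and 112, range 24 to 1229) and a fold enrichment of 8.47 (6.36 and 12.8, range 3.03 to 70.38), against 73 reads and 8.54 in all peaks. A fold enrichment of at least 20 was reached by 413 of them (10.5%), against 10.4% of all peaks, and one of at least 30 by 119 (3.02%), against 3.24%.

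At the limits of the rule the peaks ran on without a gap. Just inside 10 kb lay peaks in D830013O20Rik at 10008 bp with 89 reads, in Nsl1 at 10009 bp with 116 and in Pitpnm2 at 10011 bp with 201. Just outside lay Lemd2 at 10000 bp with 206 reads. At the far limit, the peak in Hydin at 49987 bp had 140 reads and that in Rasal2 at 49956 bp had 69, whereas Ctif at 50011 bp had 88 and Prkce at 50120 bp had 52, both outside.

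The strongest mid-intronic peaks were among the strongest of the whole list, although such peaks were not enriched there as a class. Of the 3939, 8.91% (8.06 to 9.84) were in the 10% of all peaks with the most reads. In the 10% with the highest fold enrichment were 10.1% (9.18 to 11.1). The peak with the most reads lay in intron 1 of Dnaic1, which encodes an intermediate chain of the axonemal dynein of motile cilia, at chr4:41539116-41541453. It held 1229 reads at a fold enrichment of 66.98, which was rank 6 of the 23308 peaks by reads, and lay 23.9 kb from the start of Dnaic1. The peak with the highest fold enrichment lay in intron 1 of Rfx2, another member of the RFX family with a role in ciliogenesis, at chr17:56952657-56954759. It had 469 reads at 70.38-fold, rank 9 by fold enrichment, and its X-box lay 8 bp from the summit. The peak in Uqcc, a factor for the assembly of mitochondrial complex III, took the third place in both rankings with 645 reads at 66.14-fold.

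The other peaks with many reads lay in genes of varied function. The peak in intron 10 of Slc38a9, a lysosomal amino acid transporter, had 731 reads at 37.27-fold. The one in Bahcc1 had 633 reads at 20.95-fold. The one in intron 15 of Kcnq1, a voltage-gated potassium channel, had 620 reads at 45.67-fold and lay nearest to the start of Cdkn1c, at 44.3 kb. In Rbfox3, a splicing regulator of neurons, 600 reads were found at 24.1-fold, and in 2900026A02Rik 603 reads at 15.49-fold. Arhgef40, a guanine nucleotide exchange factor, had 581 reads at 54.85-fold, Megf6 had 563 at 34.35-fold and Pitpnm2 had 553 at 31.78-fold. Of these 10 peaks with the most reads, the one in Uqcc was the one with a strict X-box, whose centre lay 88 bp from the summit.

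The order by fold enrichment brought up shorter peaks. After Rfx2, Dnaic1 and Uqcc came Ece1, the endothelin-converting enzyme, with 386 reads at 65.91-fold, and Celsr1 with 443 reads at 62.85-fold. Clmn had 395 reads at 61.91-fold. Cnnm4, a magnesium transporter, had 424 reads at 60.5-fold. 4933407C03Rik had 525 reads at 56.96-fold.

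**Figure D4:**
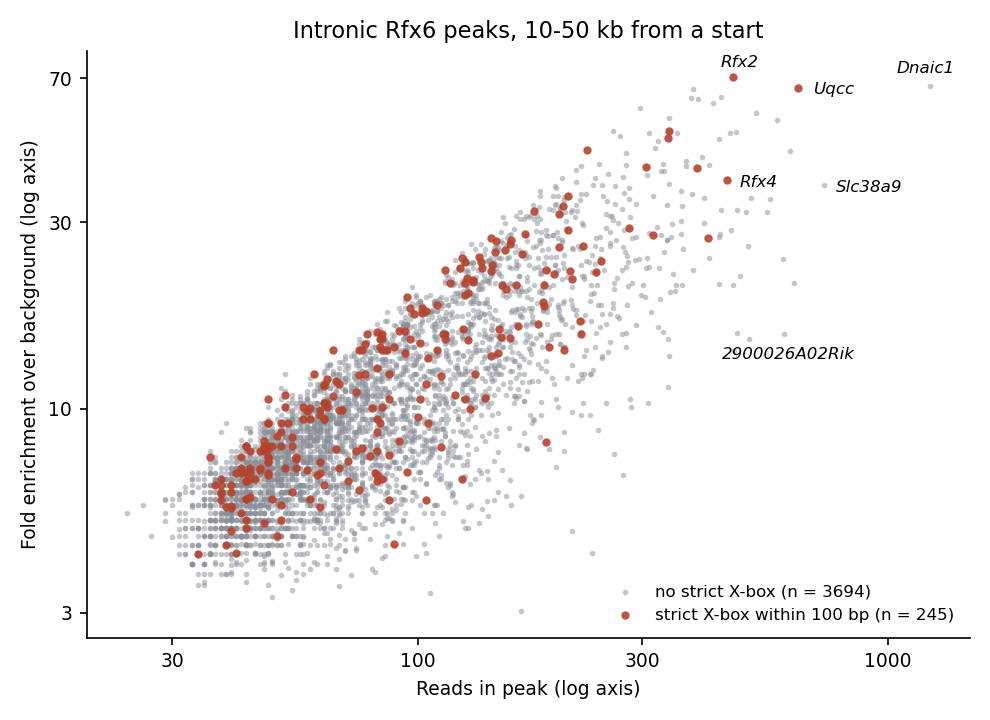
Reads in the peak (horizontal axis, log scale) and fold enrichment over the background (vertical axis, log scale) of the 3939 mid-intronic peaks, with the 245 that held a strict X-box in colour. Rfx2, Dnaic1 and Uqcc stood highest, and peaks with an X-box ran from 34 to 645 reads.

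Genes were also looked at in 7 lists. Over all protein-coding genes with sequence that met the rule, 19.2% held a mid-intronic peak, the density was 10.7 per Mb, and 6.22% of the peaks had a strict X-box. Among genes with at least 10 kb of such sequence, 25.4% held one. The lists were not matched for the amount of such sequence per gene, on which the share of genes with a peak depends. The counts of the lists are given beside these values as a description, no list was tested, and with few genes or peaks a difference from them says little. The RFX genes and islet transcription factors formed one list. Of its 44 genes, 30 had sequence that met the rule and 12 (40%) held 22 mid-intronic peaks, or 8.90 per Mb. The median fold enrichment was 8.91, against 8.47 over all mid-intronic peaks. Rfx2 held 3 peaks in its first intron, with 469, 195 and 165 reads, and the first 2 had a strict X-box. Rfx4 held a peak of 455 reads at 38.37-fold in intron 1, 10.9 kb from its start, and one of 75 reads in intron 2. Myt1l, a zinc finger factor of neural and endocrine cells, held 3 peaks, of which the one with 157 reads at 15.12-fold had an X-box. Ssbp3, a cofactor of LIM-homeodomain complexes, held 5 peaks in intron 4, with 40 to 205 reads. Single or few weaker peaks were present in Bach2, Creb1, Esrrg, Meis1, Tcf7l2, Thrb and Zbtb20, with at most 119 reads. In this list 4 of 22 peaks had a strict X-box, against 6.22% overall.

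In the insulin secretion machinery, 31 of 36 genes had such sequence and 17 (54.8%) held 35 peaks, a density of 15.2 per Mb. The median was 87 reads and a fold enrichment of 9.42. Snap25, a SNARE protein of the granule fusion complex, held a peak of 335 reads at 40.49-fold in intron 1, 40.5 kb from its start. Abcc8 encodes the sulfonylurea receptor, a subunit of the ATP-sensitive potassium channel, and held 7 peaks.

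The 7 peaks of Abcc8 ran from intron 6 to intron 28. The one in intron 10 had 238 reads at 38.84-fold and the one in intron 28 had 259 at 31.07-fold. Intron 16 held 2, with 252 reads at 10.36-fold and 223 at 15.72-fold. Intron 22 held 1 of 108 reads at 5.65-fold, and intron 6 held 2 of 68 and 34 reads. The 3 peaks of introns 6 and 10 lay closest to the start of Abcc8, and the 4 of introns 16 to 28 closest to that of Kcnj11, which encodes the pore subunit of the same channel and lies next to Abcc8. None of the 7 had a strict X-box, while the half-site lay 29.5 bp from the summit in intron 10 and 6.5 bp from it in intron 28.

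The other genes of the secretion list held peaks of at most 145 reads. Syt13, a synaptotagmin, had 145 reads at 25.82-fold. Rapgef4, the cAMP sensor Epac2, held 4 peaks with 54 to 122 reads. Prkca held 3 peaks with 68 to 115 reads. The one in intron 8 had the only strict X-box of the 35 peaks in this list, against 6.22% of all mid-intronic peaks. The calcium channel gene Cacna1c held 4 peaks of 37 to 112 reads, and Cacna1d held 1 of 81 reads. Glp1r, the receptor of the incretin GLP-1, held 1 of 71 reads.

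The content of the granules was represented by 5 of 12 genes (41.7%) with 9 peaks, or 16.5 per Mb, at a median fold enrichment of 6.36. Cpe, the carboxypeptidase that trims insulin, had 135 reads at 5.09-fold. Sorl1, a sorting receptor, held 3 peaks, the highest with 117 reads at 11.53-fold, and Scg3, a granin, had 75 reads at 12.95-fold. Pam held 3 weaker peaks and Sort1 held 1. None of the 9 peaks had a strict X-box.

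Genes of insulin receptor signalling held 19 peaks in 10 of 25 genes (40%), or 14.9 per Mb, with the highest median fold enrichment of the 7 lists, 10.83. Rptor, the scaffold of mTORC1, held 7 of them, and the strongest, in intron 1, had 326 reads at 22.83-fold. Ptpn1, a phosphatase that acts on the insulin receptor, had 197 reads at 15.54-fold. Pik3cb, a catalytic subunit of phosphoinositide 3-kinase, held 2 peaks of 143 and 46 reads, and Foxo3, a forkhead factor downstream of Akt, held 3 of 43 to 126 reads. A strict X-box was found in none of these 19, against 6.22% of all mid-intronic peaks.

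The genes called disallowed are silenced as β cells mature. Of 11 such genes, 8 had sequence that met the rule, 0.126 Mb in all, and 2 (25%) held 4 weak peaks, or 31.7 per Mb. Smad3, a mediator of TGF-β signals, had 57 and 53 reads, the second with an X-box at 9.18-fold. Maf had 40 and 39 reads at 5.65-fold and 5.18-fold. All 4 were under the median of 70 reads.

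Genes of the cilium, a known target class of RFX factors, were listed for the primary cilium, with 3 axonemal dynein genes that belong to motile cilia. Of 48 genes with such sequence, 7 (14.6%) held 10 peaks, or 5.37 per Mb. The dynein genes Dnahc9 and Dnahc11 held 4 of the 10. Nphp4, a protein of the ciliary transition zone, had 339 reads at 33.19-fold. Gli2, the transcription factor of Hedgehog signalling, had 203 reads at 26.72-fold and Dnahc9, an axonemal dynein heavy chain, had 156 at 26.6-fold. Ttc8, Dnahc11 and Wdr60 had at most 95 reads. None of the 10 peaks had a strict X-box.

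Cell adhesion and axon guidance genes held 14 peaks in 7 of 23 genes (30.4%), or 5.24 per Mb. Cdh1, which encodes E-cadherin, had 2 peaks in intron 2, with 153 reads at 29.89-fold and 115 reads at 19.07-fold. Magi1, a scaffold of cell junctions, had 134 reads at 20.88-fold in intron 1 and a second peak of 48 reads. None of the 14 peaks had a strict X-box. Long genes such as those of this list contribute much sequence.

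**Figure D5:**
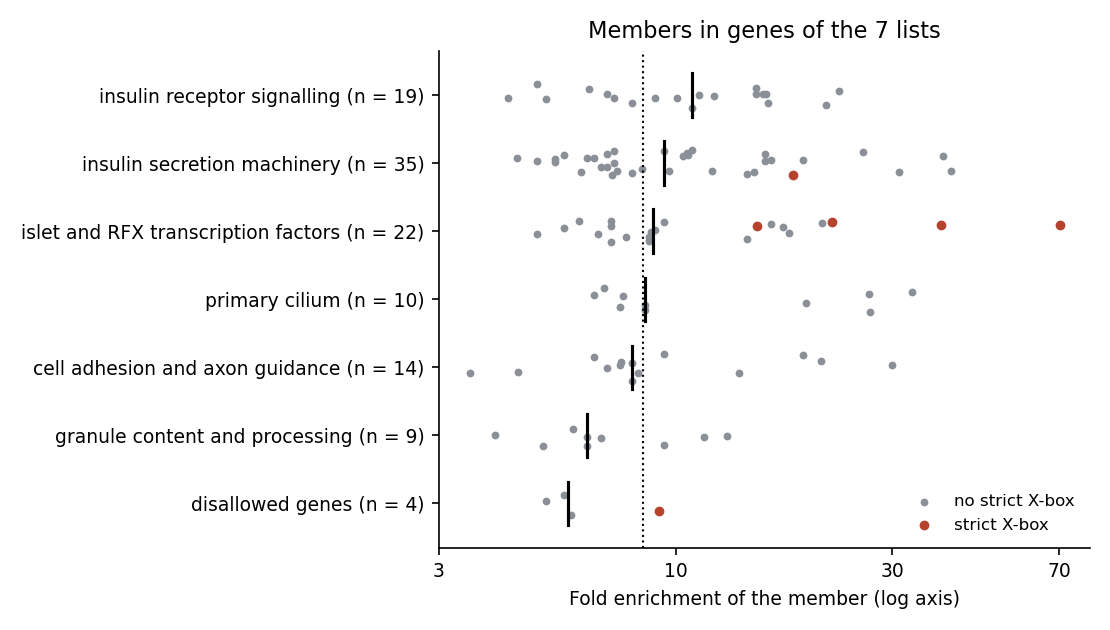
Fold enrichment (horizontal axis, log scale) of the mid-intronic peaks in genes of the 7 lists, with 1 point for each peak, a bar at the median of the list, and a dotted line at 8.47, the median of all 3939. Insulin receptor signalling had the highest median (10.83), and the 2 highest points with an X-box among the transcription factors are Rfx2 and Rfx4.

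The mid-intronic peaks were spread over many genes. Of 11357 protein-coding genes with sequence that met the rule, 2178 (19.2%) held at least 1 peak. A single peak was held by 1364 of them, 2 to 4 by 709 and 5 or more by 105. The genes that held one offered more such sequence, with a median of 40 kb against 17.3 kb in those that held none. One peak lay in a gene without a protein-coding transcript and is left out of these counts.

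Camta1, a calmodulin-binding transcription activator, held 19 mid-intronic peaks with 35 to 386 reads, or 7.90 per 100 kb. Rbfox3 held 17 with 32 to 600 reads. Col5a1, a fibrillar collagen, held 14 in 87.1 kb, which was 16.1 per 100 kb. Then came 4933407C03Rik and Shank2, a scaffold of synapses, with 12 each. Wdr25, Kazn and Atp2b2, a calcium pump of the plasma membrane, held 11 each. The highest count of all, 58, belonged to Gm20388, an annotated model of 4.43 Mb on chromosome 8 that spans 72 other protein-coding genes. Those 58 peaks (1.47%) lay in no other protein-coding gene, so their intronic place rests on this model. Fgfr2, annotated over 3.01 Mb, held another 8 in the same way.

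Genes with a peak at their start held mid-intronic peaks at a higher density. Of the 3939, 1897 (48.2%) lay in a gene with a peak within 1 kb of one of its own starts, while such genes made up 33.7% of the sequence that met the rule. This corresponded to 15.3 peaks per Mb, against 8.33 per Mb in genes without a start peak. Of the genes with at least 10 kb of such sequence, 887 of 2439 (36.4%, 34.5 to 38.3) with a start peak and 1129 of 5493 (20.6%, 19.5 to 21.6) without one held a mid-intronic peak. How open chromatin or transcription moved with both kinds of peak was not tested.

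First introns were over-represented by count. Numbered along the transcript with the longest coding sequence, 1102 peaks (28.0%, 26.6 to 29.4) lay in a first intron, which made up 23.5% of the sequence that met the rule. The density was 12.97 per Mb in first introns and 10.2 per Mb in the rest. A summit counted if it lay in the first intron of any protein-coding gene, also where that place was a later intron of another. Gm20388, described above, has a first intron annotated over 4384 kb, and its model spans 107 mid-intronic peaks. Part of the excess in first introns may thus rest on this model, and the values without it were not computed. The median fold enrichment was 8.59 in first introns and 8.31 elsewhere, with 70 reads in both. The strict X-box was present in 6.53% and 6.10%, respectively. The median intron with a peak was 17.6 kb long, and the median distance from the summit to the edge of the nearest exon was 3.57 kb.

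The start nearest to a mid-intronic peak was not always that of its host. In 3045 (77.3%) it belonged to the host gene and in 894 (22.7%) to another gene, as for Kcnq1. The median distance was 22.1 kb, and 73.3% of the summits lay downstream of the nearest start. The rule places each summit inside a gene, which favours the host's own start and a place downstream of it. The same shares for the eligible sequence are not given here. In 155 peaks (3.94%) the start of another annotated transcript, such as a processed transcript, a retained intron or an antisense RNA, lay within 1 kb. Of these 155, 7.10% (4.01 to 12.3) held a strict X-box, and of the others 6.18%.

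Mid-intronic peaks often had company. Another summit lay within 5 kb of 1257 of them (31.9%, 30.5 to 33.4), compared with 41.8% of intronic peaks nearer to a start, 25.2% of those farther away and 28.0% of intergenic peaks at 10 to 50 kb. The median distance to the next summit was 9.83 kb. On the autosomes the density was 11.3 per Mb, from 5.98 on chromosome 3 to 18.6 on chromosome 11. On chromosome X, 23 mid-intronic peaks were found, 1.44 per Mb, and the copy number of X in these cells was not tested.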

How the data were processed

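HA ChIP-seq of 3HA-Rfx6 transfected Min6b1 cells and of control Min6b1 cells was analysed from the peak list. Per the submitters' processing notes, CASAVA 1.8.2, Bowtie and MACS 1.4.2 were used with mm9. The MACS header gives a p-value cutoff of 1e-05, a band width of 300 bp and 1 read per position. The authors deposited for each peak a count of reads without normalization, a score of minus 10 times log10 of the p-value, a fold enrichment, which is a ratio to the background from the control, and a false discovery rate in percent. The background rests on the control, which is the shallower library.

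Summits were placed on NCBIM37 with GENCODE M1, using starts of transcripts typed as protein-coding. Sequence was counted as eligible where it met the same rule. Motifs were searched on both strands, 100 bp on each side of the summit and in equal windows 1 kb to the right. The scripts ran under Python 3.11.15, with scipy 1.17.1, pandas 2.3.3, numpy 2.4.6 and matplotlib 3.10.9. Tested on simulated data, the search found all of 408 planted X-boxes and a hit in 11 of 1592 windows with none planted (0.691%). The planted sites were drawn from the same pattern as the search, so finding them checks the code only. The other windows were random bases, so their share of hits does not describe the genome. All of 3000 simulated positions were placed as by a position-by-position search. With 1 library per condition, no test was made.

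Named were the peaks with the 10 highest read counts and fold enrichments, the 10 genes with the most peaks, and, in each gene list, the 3 peaks with the most reads. Some of these genes are not reported here. Further genes of the lists and Celsr1, Clmn, Snap25 and Abcc8 sequences were added after their values were seen. The rule and the lists were chosen with earlier results of these data known. Alternatives were stricter peak sets, peak middles, other starts and limits, a narrower window, a relaxed X-box, reference windows to the left and another intron numbering.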

Additional observations from a re-analysis of the deposited data

How the results depend on the processing

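The number of mid-intronic peaks was 1856 among peaks above the median score of the list and 1487 at a fold enrichment of at least 10, or 5.13 and 4.11 per Mb, since these sets hold fewer peaks. Above that score the median was 115 reads and 13.42-fold. An X-box was held by 4.85% within 50 bp of the summit, 46.7% with the relaxed form and 8.68% at a fold enrichment of at least 10. The share in a first intron was 36.0% when any protein-coding transcript could supply it, against 31.8% of the sequence. With starts of all annotated transcripts, 3503 peaks met the rule, of which 2920 were among the 3939. With starts of all transcripts of protein-coding genes, an alternative added after seeing the data, 3490 met it and 3221 were shared. The X-box share was then 6.48% and 6.39%. With the middle of the peak 3951 met the rule, and reference windows to the left held an X-box in 0.355%. No paired analysis was possible because each condition had a single library. Without replicates, the spread between cultures or transfections is unknown, and every value holds for this library.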
